A study of Homo sapiens with 24 samples.

Results

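SW1222 is an established human colorectal cancer cell line. A derivative of it carried DPPA3 under doxycycline induction, and its gene expression was compared between a 3D and a 2D culture. The 3D cells were the 3 samples of the DPPA3-overexpressing line grown as megacolonies embedded in Matrigel, a basement membrane gel, with 5 µg/ml doxycycline over the final 5 days. The 2D cells were the 3 samples of the same line cultured in 2D with 5 µg/ml doxycycline for 4 hours. These were 6 of the 24 arrays of the series, chosen by their titles alone. The control line of the same experiment, which received doxycycline at the same dose and for the same times, was set beside them with 3 arrays in 3D and 3 in 2D. All of these cells were grown at 21% oxygen. Culture and the length of doxycycline treatment changed together in both lines, so their effects cannot be told apart. No array of the induced line without doxycycline was used here. The labels do not name the promoter of the transgene, do not say whether a line is 1 clone, and do not say whether replicate arrays came from separate cultures. The p-values therefore measure the spread between these arrays, which may be technical.

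Cells in a compact 3D colony meet gradients of oxygen and nutrients. When oxygen falls, the transcription factors HIF-1 and HIF-2 are stabilised, bind DNA at a short core sequence and raise genes of glucose use, blood vessel growth and acid-base balance. The stress factor ATF4 raises amino acid synthesis and transport genes, and the aryl hydrocarbon receptor (AhR) and NRF2 raise enzymes that handle foreign and oxidised compounds. In the intestine, dividing stem cells at the crypt base give rise to absorptive, goblet and endocrine cells, which leave the cell cycle as they mature. DPPA3 is a small protein of germ cells and the early embryo that binds UHRF1, a cofactor of the maintenance DNA methyltransferase DNMT1.

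The promoters below belong to genes whose change was among the largest of their lists, or to called hypoxia genes whose window holds the HIF core. They are the 250 bases before the annotated start in RefSeq (GRCh38.p14), read 5′ to 3′ on the gene's strand. The first is that of CYP1A1, an AhR-induced cytochrome P450 and the gene with the largest fall, at chr15:74725529-74725778 on the minus strand, with its TATAAA in capitals. Of 13864 tested genes with a promoter in the table, 5.9% held TATAAA on the given strand in this window.
CYP1A1: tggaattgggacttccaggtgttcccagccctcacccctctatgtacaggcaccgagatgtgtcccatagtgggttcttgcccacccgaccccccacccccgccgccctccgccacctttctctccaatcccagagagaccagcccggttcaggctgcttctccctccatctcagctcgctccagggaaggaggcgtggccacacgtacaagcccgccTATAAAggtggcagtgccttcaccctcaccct
AKR1C2 lies at chr10:5003858-5004107 on the minus strand and AKR1C1 at chr10:4963165-4963414 on the plus strand. Both encode aldo-keto reductases that act on steroids and other carbonyl compounds. Their windows shared an identical run of 245 bases, and the capitals mark the bases outside it.
AKR1C2: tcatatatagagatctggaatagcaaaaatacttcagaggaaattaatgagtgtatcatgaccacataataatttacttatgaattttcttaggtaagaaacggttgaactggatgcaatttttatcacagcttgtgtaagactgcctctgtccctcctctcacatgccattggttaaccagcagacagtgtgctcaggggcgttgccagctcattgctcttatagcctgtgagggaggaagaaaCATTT
AKR1C1: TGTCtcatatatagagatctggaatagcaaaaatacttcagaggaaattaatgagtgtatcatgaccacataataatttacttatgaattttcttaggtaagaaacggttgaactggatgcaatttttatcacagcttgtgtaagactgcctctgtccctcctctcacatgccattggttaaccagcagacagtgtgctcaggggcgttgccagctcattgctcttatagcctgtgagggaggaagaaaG
DDIT4, an inhibitor of mTORC1 signalling (chr10:72273674-72273923, plus strand), and P4HA1, a collagen prolyl hydroxylase subunit (chr10:73096867-73097116, minus strand), are called hypoxia genes. The HIF core ACGTG, or CACGT where it lies on the other strand, is in capitals.
DDIT4: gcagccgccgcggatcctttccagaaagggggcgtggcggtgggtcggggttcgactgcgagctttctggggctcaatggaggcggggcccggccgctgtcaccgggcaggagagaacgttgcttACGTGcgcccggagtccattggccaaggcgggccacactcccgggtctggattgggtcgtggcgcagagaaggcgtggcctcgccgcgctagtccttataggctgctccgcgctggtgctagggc
P4HA1: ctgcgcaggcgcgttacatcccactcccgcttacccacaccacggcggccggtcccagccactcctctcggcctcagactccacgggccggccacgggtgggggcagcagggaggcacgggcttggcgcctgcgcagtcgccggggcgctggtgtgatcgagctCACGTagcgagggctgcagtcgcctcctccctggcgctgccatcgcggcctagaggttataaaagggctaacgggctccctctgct
The letters ACGTG, which also form part of the E-box CACGTG, were searched on both strands. They stood in the windows of 8 of the 16 higher hypoxia genes with a promoter, of 7 of the 12 that did not pass and of 21.1% of all 13864 genes. The windows of CA12 and VLDLR held none. These changed most among the hypoxia genes with a promoter entry that were eligible to be shown, by the rule given with the data processing. The AhR core TNGCGTG stood in the window of 1 of 4 lower AhR pathway genes with a promoter and in 5.5% of all, and the NRF2 core TGACNNNGC in 2 of 9 lower NRF2 genes, 3 of 9 that did not pass and 11.8% of all. The windows of CYP1A1, TIPARP, AKR1C2 and AKR1C1 did not hold their list's core. A match is a description of the letters and not a binding site.

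Values are log2 signals from RMA, so a difference of 1 is a 2-fold change, and levels are not compared between genes. Across 17448 genes, arrays correlated at r = 0.989 to 0.993 within the 3D group, at 0.991 to 0.992 within the 2D group and at 0.980 to 0.982 between them. No array stood apart. DPPA3 was at 3.77, 4.54 and 4.74 in the 3D arrays of the induced line, against 4.73, 4.18 and 6.16 in its 2D arrays. The 2 groups overlapped, and the difference of -0.68 did not pass (limma, adjusted p = 0.155). Over the alternatives it lay between -1.10 and -0.11, with limma adjusted p from 0.0131 to 0.832. Whether DPPA3 passed thus depended on the setting. In the control line DPPA3 was at 2.99, 2.59 and 2.97 in 3D and at 2.83, 3.27 and 3.47 in 2D, below every array of the induced line. Colorectal epithelial genes (cadherins, keratins and CDX factors) had a mean level of 8.75 to 8.96 in the 3D arrays and of 8.57 to 8.63 in the 2D arrays, and 4 of 12 were higher in 3D. Markers of fibroblasts, leukocytes and endothelium were at mean levels of 2.73 to 2.96 in 3D and 2.74 to 3.08 in 2D. None of these 40 markers passed in either direction in the fit over all arrays, and 1 endothelial gene passed without 2D array 3.

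In the induced line 1317 genes (7.55%) were higher in 3D than in 2D and 1282 (7.35%) were lower, by limma at an adjusted p under 0.05. The change was at least 2-fold in 96 higher genes (0.550%) and 31 lower genes (0.178%). The median change of all genes was -0.03, and the median standard error was 0.123. With each array centred on its median, 1128 genes were higher and 1549 lower. Of the called genes 84.0% lay above the median level of all genes. Over the chromosomes other than Y, the median change lay between -0.05 on chromosome 18 and -0.01 on chromosomes 7, 15, 16 and 19. Chromosome 18 had the smallest share of higher genes, 3.14%, and chromosome 19 the smallest share of lower genes, 3.01%. The plot of single arrays gives the genes that changed most, chosen among those whose groups did not overlap.

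**Figure D1:**
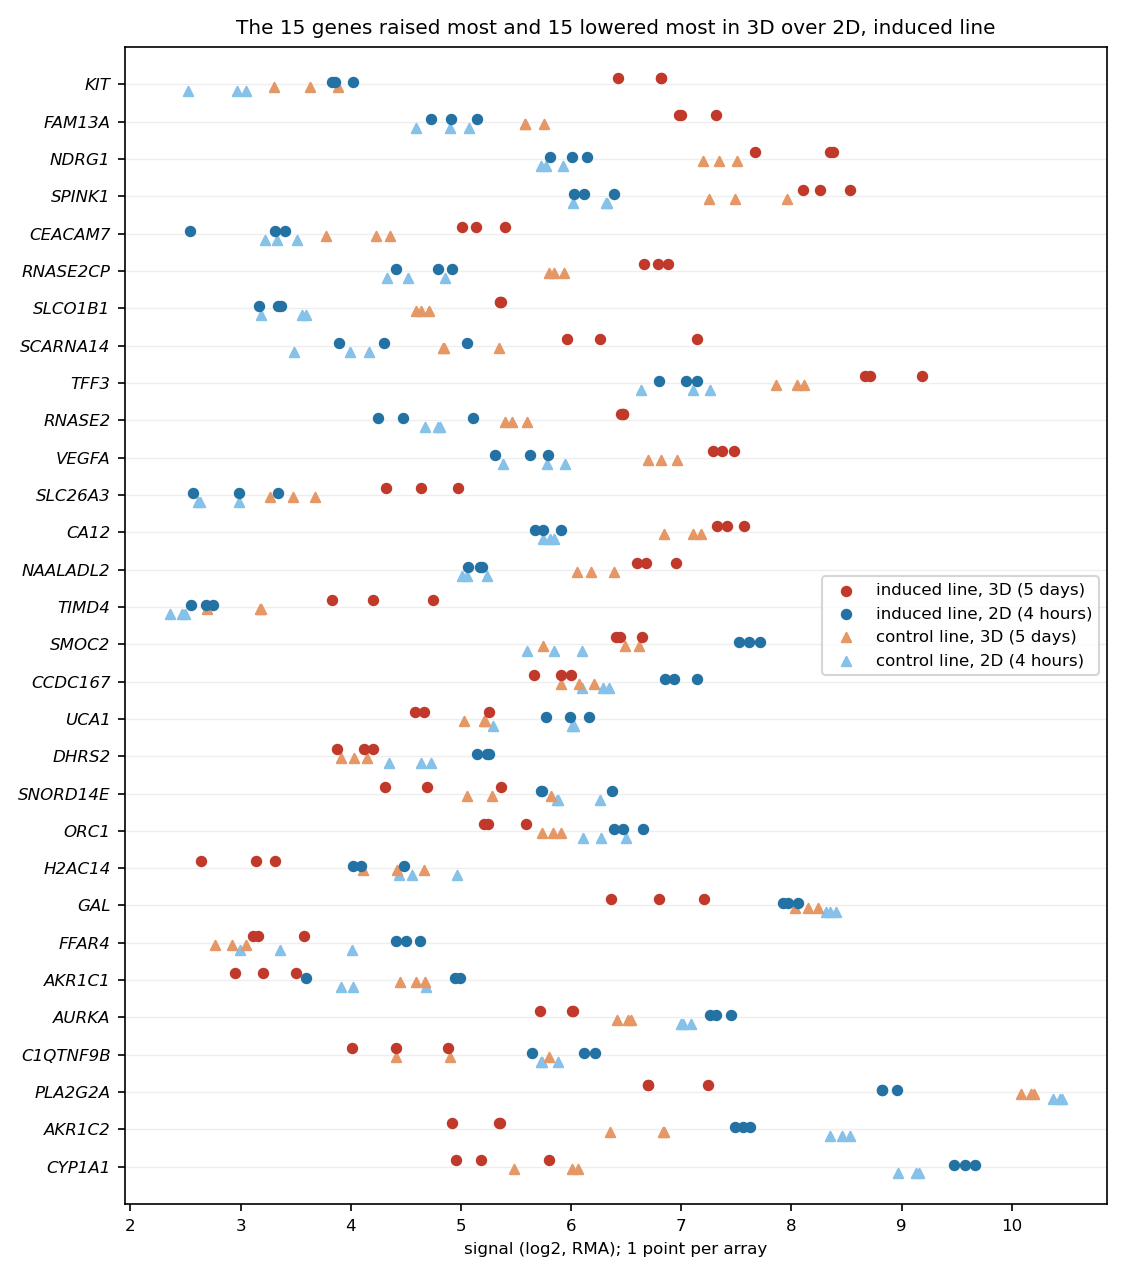
Log2 RMA signal of the 15 genes with the highest and the 15 with the lowest change in the induced line, chosen for those values and for arrays that did not overlap between 3D and 2D. Each point is 1 array: circles are the induced line (3D in red, 2D in dark blue) and triangles the control line (3D in orange, 2D in light blue). The gap is widest for CYP1A1, at 5.80, 5.18 and 4.96 in 3D against 9.48, 9.67 and 9.58 in 2D.

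KIT, the receptor tyrosine kinase for stem cell factor, rose most. It was at 6.43, 6.81 and 6.82 in 3D, against 3.86, 4.02 and 3.83 in 2D, a change of 2.78 ± 0.18 (SE, adjusted p = 1.85e-10). The 3D arrays of the control line, at 3.31, 3.63 and 3.88, reached no more than the 2D level of the induced line. FAM13A was at 7.0, 6.98 and 7.32 in 3D against 4.73, 5.15 and 4.91 in 2D (2.17 ± 0.15, adjusted p = 3.63e-10). NDRG1, a hypoxia-responsive gene of differentiating epithelium, was at 8.38, 7.67 and 8.35 in 3D against 5.81, 6.15 and 6.01 in 2D (2.15 ± 0.17). SPINK1, a secreted trypsin inhibitor, was at 8.26, 8.53 and 8.11 in 3D against 6.12, 6.03 and 6.39 in 2D (2.12 ± 0.16). SLCO1B1, an organic anion transporter best known from liver, had nearly equal 3D arrays at 5.35, 5.35 and 5.37 in 3D against 3.34, 3.17 and 3.37 in 2D (2.06 ± 0.14). The other genes among the 15 that rose most were CEACAM7, RNASE2CP, SCARNA14, TFF3, RNASE2, VEGFA, SLC26A3, CA12, NAALADL2 and TIMD4, with changes of 1.60 to 2.10. RNASE2 and its pseudogene neighbour RNASE2CP are close copies, so their probes may share signal. SCARNA14, a small Cajal body RNA, had the widest 3D spread of these, at 5.97, 6.26 and 7.15, against 5.05, 3.89 and 4.30 in 2D.

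CYP1A1 fell most, by 4.26 ± 0.19 (SE, adjusted p = 7.24e-14). Its 3 arrays in 3D were at 5.80, 5.18 and 4.96, against 9.48, 9.67 and 9.58 in 2D. AKR1C2 was at 5.35, 4.92 and 5.36 in 3D against 7.56, 7.49 and 7.63 in 2D (-2.35 ± 0.19). PLA2G2A, a secreted phospholipase of Paneth cells, was at 6.70, 7.25 and 6.70 in 3D against 8.95, 8.82 and 8.82 in 2D (-1.98 ± 0.12). Its 2D arrays in the control line were already higher, at 10.4, 10.5 and 10.4. C1QTNF9B, a secreted C1q-related protein gene, was at 4.02, 4.41 and 4.89 in 3D against 5.65, 6.12 and 6.21 in 2D (-1.55 ± 0.31). AURKA, a kinase of the mitotic spindle poles, was at 6.02, 6.01 and 5.71 in 3D against 7.26, 7.31 and 7.45 in 2D (-1.43 ± 0.13). FFAR4, a receptor for long-chain fatty acids, fell by 1.23, and GAL, the neuropeptide galanin, fell by 1.20. AKR1C1, H2AC14, ORC1, SNORD14E, DHRS2, UCA1, CCDC167 and SMOC2 completed the 15 that fell most, with changes of -1.29 to -1.12. AKR1C1 rested on arrays at 3.20, 3.51 and 2.95 in 3D against 4.94, 4.99 and 3.59 in 2D, so the lowest 2D array lay close to the 3D arrays. Signal of AKR1C1 and AKR1C2 may be shared, since they are near-identical paralogs. All 30 of these genes kept their direction and passed under every alternative that was run.

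**Figure D2:**
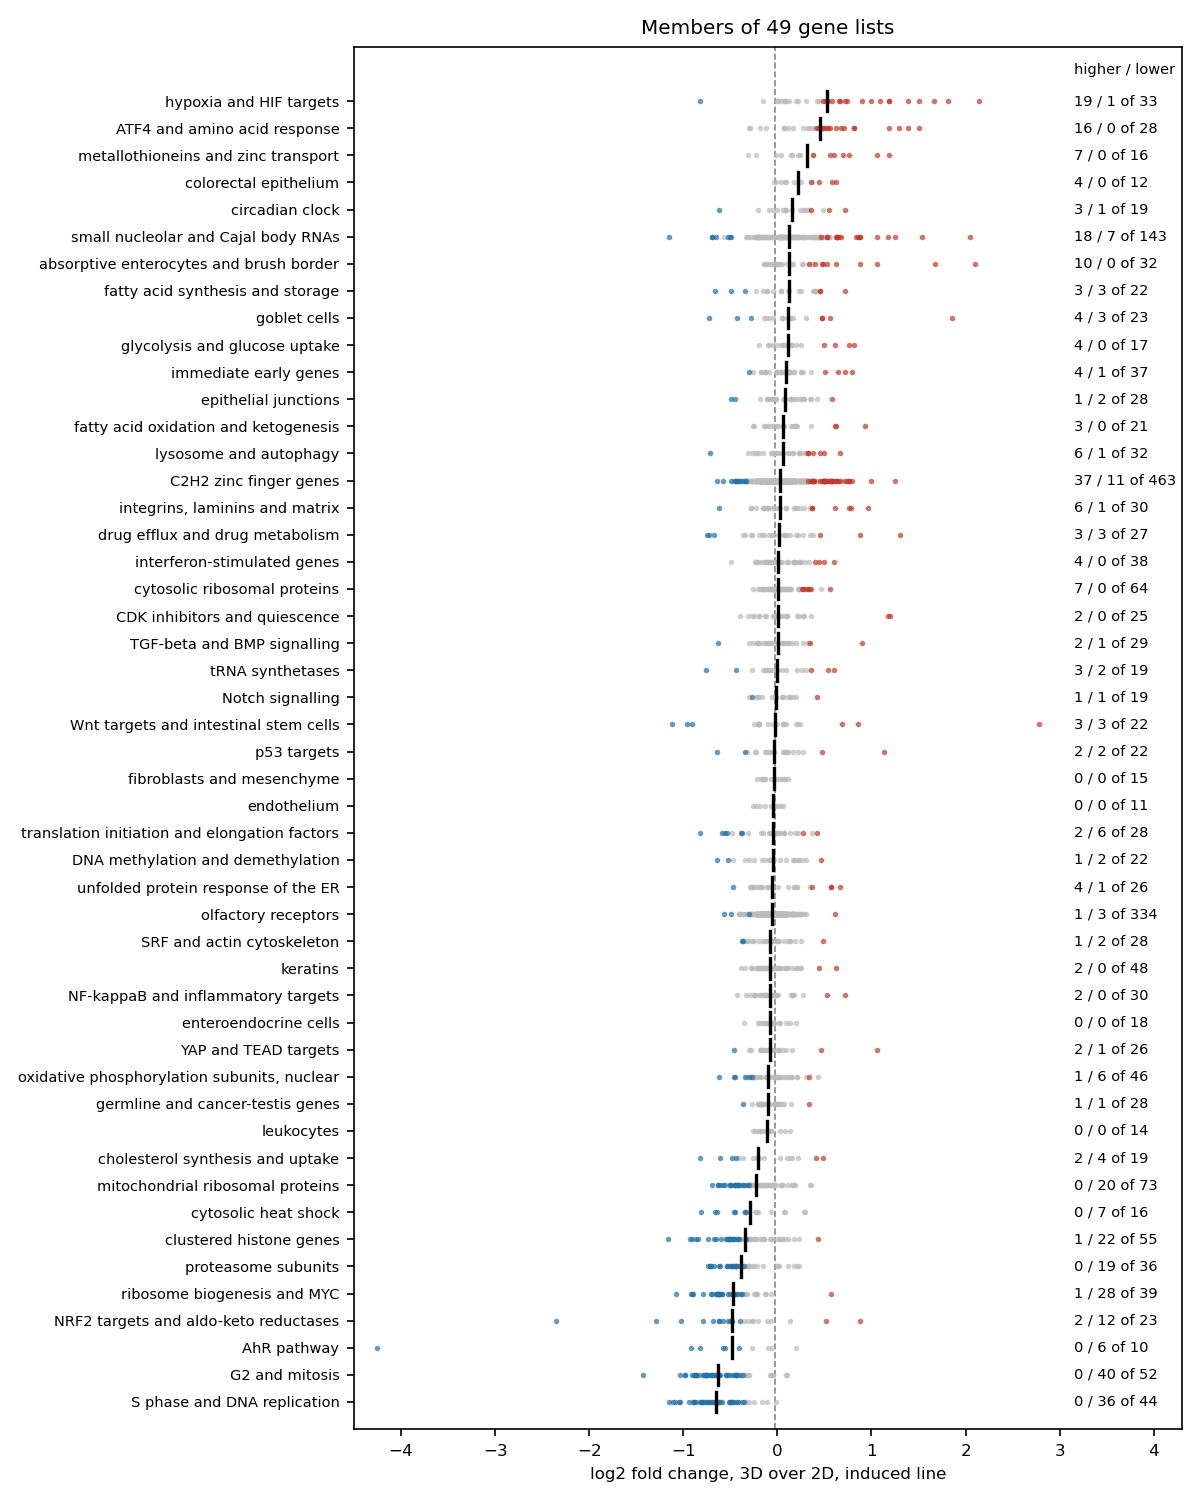
Log2 change from 2D to 3D in the induced line of the measured members of 49 gene lists, with 1 point per gene (red higher, blue lower, grey not passed), a black bar at each list's median, a dashed line at the median of all genes and the counts at the right. Cell division, ribosome biogenesis, proteasome and histone lists stand on the lower side, with 40 of 52 G2 and mitosis genes lower, and hypoxia and ATF4 lists on the higher side, with 19 of 33 hypoxia genes higher.

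Cell division genes were lower in 3D. Of 44 measured genes of S phase and DNA replication, 36 fell and 0 rose, and all 44 values were below 0, with a median of -0.65 against -0.03 for all genes. The mean level of the list was 5.58, 5.62 and 5.49 in the 3D arrays, against 6.20, 6.12 and 6.28 in the 2D arrays. ORC1, the largest subunit of the origin recognition complex, was at 5.25, 5.59 and 5.21 in 3D against 6.65, 6.39 and 6.47 in 2D (-1.15 ± 0.14, adjusted p = 1.81e-06). CDC45, part of the replicative helicase, fell by 1.11, and ORC6 and MCM10, which act in origin licensing and firing, fell by 1.08 and 1.04. Of 52 genes of G2 and mitosis, 40 fell and 0 rose (median -0.63). The list's mean level was 5.89, 6.04 and 5.82 in 3D against 6.49, 6.42 and 6.58 in 2D. Beside AURKA, the cytokinesis scaffold ANLN was at 6.50, 6.53 and 6.36 in 3D against 7.62, 7.38 and 7.49 in 2D (-1.04 ± 0.11). The mitotic kinase PLK1 and the chromosome motor KIF4A each fell by 0.98. MKI67, the antigen used to count cycling cells, was at 7.30, 7.76 and 7.28 in 3D against 8.17, 8.29 and 8.17 in 2D (-0.76 ± 0.10, adjusted p = 1.34e-05). In these bulk samples, fewer dividing cells and less RNA per cell cannot be told apart. Clustered histone genes, whose RNA peaks in S phase, fell in 22 of 55 and rose in 1 (median -0.34). H2AC14 was at 3.32, 3.14 and 2.64 in 3D against 4.10, 4.02 and 4.49 in 2D, and H3C12 and H2BC10 fell by 0.93 and 0.87. The histone count was 13 without 3D array 2. Histone genes are near-identical copies, so single members are uncertain. The 1 that rose, H2AC25 (0.44), had overlapping arrays and lost its call under 10 alternatives.

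In the list of CDK inhibitors and quiescence genes 2 of 25 rose and 0 fell (median 0.01), near the 7.55% of all genes that were higher. The 2 were TXNIP, a glucose-regulated binder of thioredoxin, and BTG1, an antiproliferative adaptor of mRNA deadenylation. TXNIP was at 8.71, 8.33 and 9.23 in 3D against 7.40, 7.65 and 7.63 in 2D (1.20 ± 0.16), and BTG1 was at 6.49, 6.62 and 6.18 in 3D against 5.28, 5.31 and 5.18 in 2D (1.17 ± 0.14). CDKN1A, the p21 inhibitor, was at 4.86, 4.49 and 4.49 in 3D and 4.35, 4.24 and 4.41 in 2D, and its difference of 0.28 did not pass (adjusted p = 0.269). Of 22 p53 targets 2 rose and 2 fell (median -0.03), near the shares of all genes (7.55% higher and 7.35% lower). TP53INP1, a stress-induced regulator of autophagy and cell death, rose by 1.14 and the quinone oxidoreductase TP53I3 by 0.48. MDM2 and TIGAR fell, with changes of -0.453 to -0.28 and of -0.86 to -0.506 over the alternatives. MDM2 lost its call under 8 alternatives and TIGAR under 1. MYC was at 8.13, 7.86 and 7.77 in 3D and 8.10, 8.04 and 7.98 in 2D, and did not pass (-0.12, adjusted p = 0.578). Quantile normalization of the arrays a second time gave 0.005 for MYC.

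Genes that build ribosomes and degrade proteins were also lower in 3D. In the list of ribosome biogenesis and MYC-regulated growth genes 28 of 39 fell and 1 rose (median -0.47). The list's mean level was 6.56, 6.58 and 6.47 in 3D against 7.0, 6.95 and 7.12 in 2D. MRTO4, an assembly factor of the large subunit, was at 6.19, 5.96 and 6.15 in 3D against 7.13, 7.25 and 7.17 in 2D (-1.08 ± 0.15). UTP20, of the small-subunit processome, fell by 0.91, and POLR1E, a subunit of RNA polymerase I, fell by 0.91. The 1 that rose was NOP53, a nucleolar assembly factor, by 0.57. Proteasome subunits fell in 19 of 36 and rose in 0 (median -0.38). The ATPase subunit PSMC1 was at 8.67, 8.92 and 8.64 in 3D against 9.41, 9.47 and 9.58 in 2D (-0.74 ± 0.10), and PSMD2 and PSMD11 of the regulatory particle fell by 0.71 and 0.70. Mitochondrial ribosomal proteins fell in 20 of 73 and rose in 0 (median -0.23), with MRPS7 at 7.30, 7.21 and 7.28 in 3D against 7.84, 7.99 and 8.04 in 2D. That count was 13 without 3D array 1 or without 3D array 3, and 8 without 2D array 3. Cytosolic heat shock genes fell in 7 of 16 (median -0.29), among them the co-chaperone DNAJA1 (-0.82 ± 0.13), HSP90AB1 (-0.64 ± 0.13) and the HSP70-HSP90 adaptor STIP1 (-0.67 ± 0.12). Translation factors fell in 6 of 28 and rose in 2, against 7.35% of all genes lower and 7.55% higher. EIF2S1, the alpha subunit of eIF2, was at 7.22, 7.05 and 7.08 in 3D against 7.84, 7.87 and 8.11 in 2D. The translation factor count was 5 without 3D array 3 or without 2D array 1. Cytosolic ribosomal proteins kept a median of 0.01. In that list 7 of 64 rose, led by RPS28 (0.56 ± 0.09), and between 1 and 11 passed over the alternatives.

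**Figure D3:**
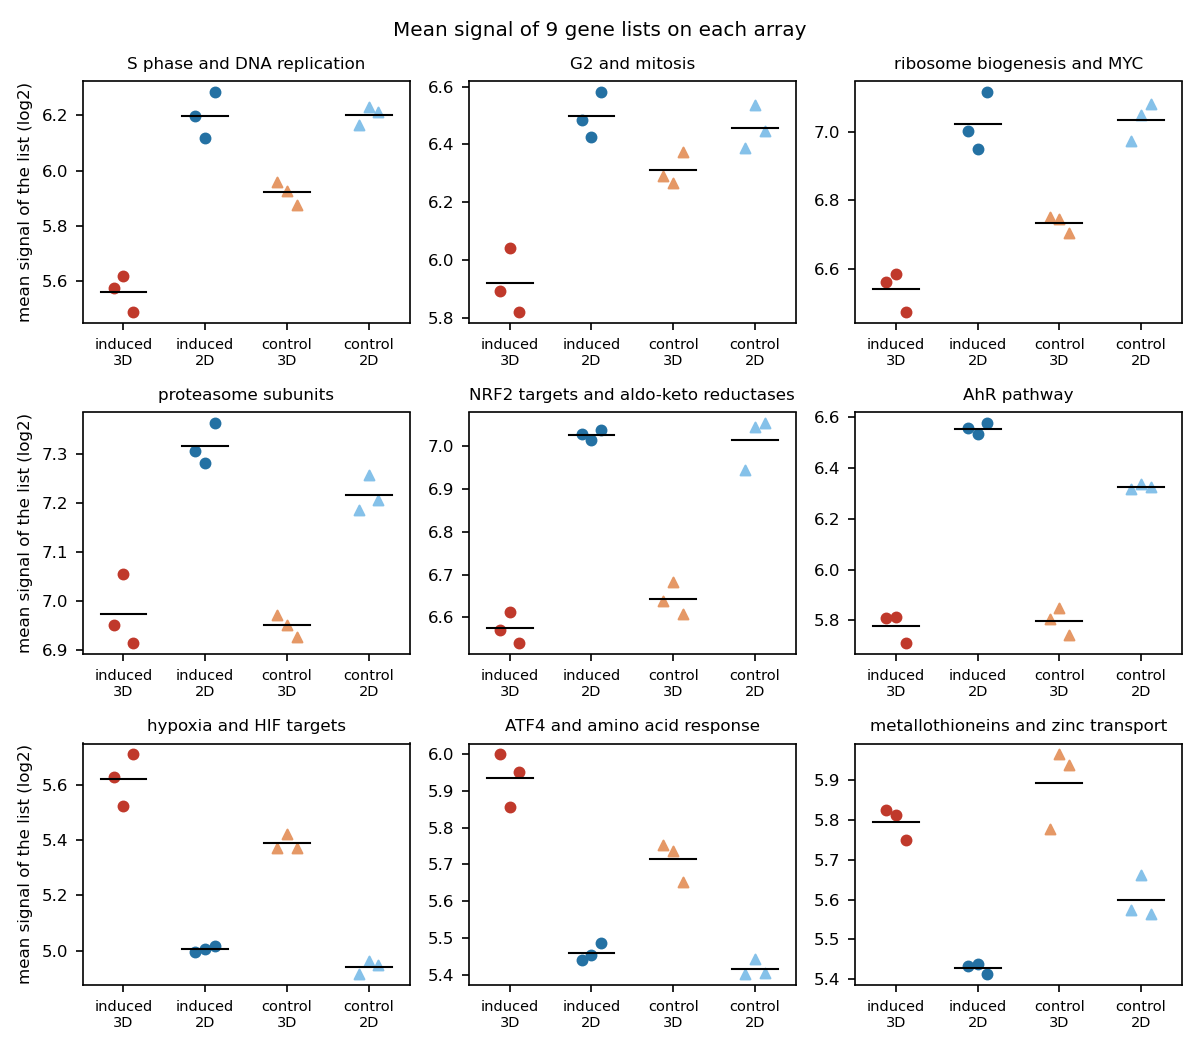
Mean log2 level of the measured members of 9 gene lists in each of the 12 arrays of the induction experiment, with 1 point per array, a bar at each group's mean and axes that do not start at 0. For S phase the 3D arrays of the induced line stand lowest, at 5.49 to 5.62, below its 2D arrays at 6.12 to 6.28, and for hypoxia they stand highest, at 5.52 to 5.71 against 4.99 to 5.01 in 2D.

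Hypoxia genes were higher in 3D. Of 33 measured HIF targets 19 rose and 1 fell (median 0.53). Their mean level was 5.63, 5.52 and 5.71 in 3D against 4.99, 5.00 and 5.01 in 2D, with no overlap. Beside NDRG1, VEGFA, the growth factor of blood vessels, was at 7.48, 7.29 and 7.37 in 3D against 5.63, 5.79 and 5.31 in 2D (1.81 ± 0.14, adjusted p = 1.75e-09). CA12, a cell-surface carbonic anhydrase, was at 7.42, 7.33 and 7.57 in 3D against 5.67, 5.75 and 5.91 in 2D (1.66 ± 0.11). VLDLR, a lipoprotein receptor, rose by 1.51, and DDIT4, whose promoter is shown above, was at 5.74, 5.85 and 6.04 in 3D against 4.49, 4.50 and 4.48 in 2D (1.39 ± 0.18). The 1 that fell was JMJD6, a lysyl hydroxylase of splicing factors, by 0.82. HIF1A itself was at 6.27, 6.67 and 6.51 in 3D and 6.80, 6.46 and 6.83 in 2D, which overlapped (-0.21, adjusted p = 0.37). EPAS1, which encodes HIF-2 alpha, was at 4.62, 4.39 and 4.52 in 3D against 4.08, 4.06 and 3.74 in 2D (0.55 ± 0.11, adjusted p = 0.0011). Protein stability sets much of HIF activity and was not measured. Glycolysis and glucose uptake genes rose in 4 of 17 and fell in 0, with a median of 0.11. They were the hexokinase HK2 (0.81 ± 0.13), the aldolase ALDOC (0.76 ± 0.17) and the phosphofructokinase genes PFKL (0.62 ± 0.15) and PFKP (0.50 ± 0.13), and 2 passed without 3D array 1. LDHA (0.16, adjusted p = 0.408), SLC2A1 (0.20, adjusted p = 0.476) and PGK1 (-0.19, adjusted p = 0.26), named after their values were seen, did not pass.

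Amino acid stress genes were also higher in 3D. In the ATF4 list 16 of 28 rose and 0 fell (median 0.45), and VLDLR, DDIT4 and STC2 belonged to both this list and the hypoxia list. PHGDH, the first enzyme of serine synthesis, was at 7.56, 7.08 and 7.39 in 3D against 6.03, 6.09 and 6.04 in 2D (1.29 ± 0.12, adjusted p = 8.52e-08). STC2, a secreted glycoprotein of stressed cells, was at 5.46, 5.32 and 5.31 in 3D against 4.12, 4.30 and 4.12 in 2D (1.18 ± 0.16). The unfolded protein response of the endoplasmic reticulum rose in 4 of 26 and fell in 1 (median -0.06), and passing members numbered 3 to 8 over the alternatives. XBP1, its splice-activated transcription factor, was at 8.04, 7.99 and 7.99 in 3D against 7.41, 7.47 and 7.42 in 2D (0.57 ± 0.10). Among tRNA synthetases 3 of 19 rose and 2 fell, with AARS1 for alanine higher by 0.60 and HARS1 for histidine lower by 0.75. Beside these counts for tRNA synthetases and the unfolded protein response, 7.55% of all genes were higher and 7.35% lower.

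Enzymes that clear foreign and oxidised compounds were mostly lower. The AhR pathway fell in 6 of 10 and rose in 0 (median -0.48), and 6 passed in each alternative fit that kept all genes. CYP1A1 led it. TIPARP, an ADP-ribosylase that represses AhR, was at 5.29, 5.01 and 5.18 in 3D against 6.07, 5.98 and 6.20 in 2D (-0.92 ± 0.12). The aldehyde dehydrogenase ALDH3A1 was at 6.43, 6.26 and 6.26 in 3D against 7.19, 7.07 and 7.16 in 2D (-0.82 ± 0.11). NRF2 targets and aldo-keto reductases fell in 12 of 23 and rose in 2 (median -0.48). AKR1B10, a reductase of retinal and other aldehydes, was at 5.88, 6.51 and 5.63 in 3D against 6.83, 7.04 and 7.21 in 2D (-1.02 ± 0.20). SRXN1, which repairs peroxiredoxins, fell by 0.79, and NQO1, a quinone reductase on both lists, fell by 0.58. The 2 that rose were the efflux pump ABCC3 (0.88 ± 0.12) and the cystine transporter SLC7A11 (0.51 ± 0.12). Metallothioneins and zinc transporters went the other way, with 7 of 16 higher and 0 lower (median 0.31). MT1F, a metal-binding protein, was at 8.86, 8.55 and 8.54 in 3D against 7.49, 7.56 and 7.34 in 2D (1.18 ± 0.12), and MT1G was at 10.1, 10.3 and 9.97 in 3D against 9.11, 9.07 and 9.03 in 2D (1.06 ± 0.13). Metallothionein genes are close copies and may share signal. Drug efflux and metabolism genes rose in 3 of 27 and fell in 3 (median 0.02), against 7.55% of all genes higher and 7.35% lower. SULT1B1, a sulfotransferase, was at 4.72, 3.75 and 4.34 in 3D against 2.83, 3.08 and 2.99 in 2D (1.30 ± 0.16). TYMS, the thymidylate synthase inhibited by fluorouracil, was at 7.59, 7.88 and 7.59 in 3D against 8.39, 8.38 and 8.52 in 2D (-0.74 ± 0.11), and UMPS, which activates that drug, fell by 0.73.

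A minority of the genes of mature intestinal cells rose, and in the Wnt and stem cell list 3 genes rose and 3 fell. Of 32 genes of absorptive enterocytes and their brush border 10 rose and 0 fell (median 0.13). CEACAM7, an adhesion molecule of the upper crypt, was at 5.14, 5.01 and 5.40 in 3D against 3.31, 3.41 and 2.54 in 2D (2.10 ± 0.19). SLC26A3, the chloride-bicarbonate exchanger of colonocytes, was at 4.64, 4.32 and 4.97 in 3D against 2.56, 2.99 and 3.34 in 2D (1.68 ± 0.16), and CEACAM1 rose by 1.06. KRT20, a keratin of differentiated colonocytes, was at 7.82, 7.72 and 7.85 in 3D against 7.09, 7.12 and 7.32 in 2D (0.62 ± 0.12), and the intestinal cadherin CDH17 rose by 0.58. Among goblet cell genes 4 of 23 rose and 3 fell (median 0.12), and 4 passed without 2D array 1 or without 2D array 3. TFF3, the goblet cell trefoil peptide, was at 9.18, 8.71 and 8.67 in 3D against 7.04, 7.14 and 6.80 in 2D (1.86 ± 0.14). The lowest change in that list was -0.725. SPINK4 and ST6GALNAC1 were lower in 3D, by -0.935 to -0.601 and by -0.462 to -0.356 over the alternatives. In the control line 5 of the 23 goblet cell genes rose and 0 fell (median 0.165). Enteroendocrine genes passed in 0 of 18 (median -0.08), and in 1 under 4 of the alternatives. In the list of Wnt targets and intestinal stem cell genes 3 of 22 rose and 3 fell (median -0.03), against 7.55% of all genes higher and 7.35% lower. The other 16 did not pass. The 3 that fell mark stem cells. LGR5, the R-spondin receptor, was at 7.09, 7.11 and 6.99 in 3D against 7.94, 7.87 and 8.12 in 2D (-0.91 ± 0.11, adjusted p = 3.13e-06). OLFM4, a secreted glycoprotein, was at 8.30, 8.21 and 8.50 in 3D against 9.30, 9.19 and 9.40 in 2D (-0.96 ± 0.14), and SMOC2, a matricellular protein, was at 6.65, 6.41 and 6.45 in 3D against 7.52, 7.61 and 7.72 in 2D (-1.12 ± 0.16). Those that rose were KIT, the BMP co-receptor RGMB (0.86 ± 0.14) and RNF43, a ubiquitin ligase that removes Frizzled receptors (0.69 ± 0.13). In the control line 6 of these 22 genes rose and 1 fell (median 0.154).

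Genes of cell attachment and signalling changed in smaller numbers. Integrins, laminins and matrix genes rose in 6 of 30 and fell in 1 (median 0.03). ITGA5, the fibronectin receptor subunit, was at 4.69, 4.79 and 4.44 in 3D against 3.28, 4.13 and 3.63 in 2D (0.96 ± 0.17), and ITGA3 and ITGB6 rose by 0.78 and 0.76. YAP and TEAD targets rose in 2 of 26 and fell in 1 (median -0.08), near or below the shares of all genes (7.55% higher and 7.35% lower), with NT5E, the ectonucleotidase CD73, at 7.40, 7.32 and 7.46 in 3D against 6.25, 6.09 and 6.67 in 2D. TGF-beta and BMP genes rose in 2 of 29 and fell in 1 (median 0.002), below the 7.55% of all genes higher and the 7.35% lower. The matrix protein TGFBI led them (0.90 ± 0.10), and 1 passed without 2D array 1. Immediate early genes rose in 4 of 37 and fell in 1 (median 0.09), against 7.55% of all genes higher and 7.35% lower. The ETS factor ETV5 (0.79 ± 0.14) and the epithelial factor KLF4 (0.64 ± 0.12) were among those higher. Of 30 NF-kappaB targets 2 rose and 0 fell, below the 7.55% of all genes higher and the 7.35% lower, and 22 of the 30 values were below 0 (median -0.08). The inflammatory cytokine IL1B, 1 of the 2 that rose, was at 4.15, 4.06 and 4.19 in 3D against 3.56, 3.14 and 3.54 in 2D. Interferon-stimulated genes rose in 4 of 38, near the 7.55% of all genes higher, with a median of 0.01. OAS1 led them (0.60 ± 0.11), and 2 passed without 3D array 1. Epithelial junction genes (1 higher and 2 lower of 28), SRF and actin genes (1 and 2 of 28), Notch genes (1 and 1 of 19) and keratins (2 and 0 of 48) had medians between -0.08 and 0.08. Their shares were below those of all genes, 7.55% higher and 7.35% lower. Those 4 lists held 0 to 6 called genes over the alternatives.

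Metabolic and other lists split by member, and their counts stand beside 7.55% of all genes higher and 7.35% lower. Cholesterol synthesis fell in 4 of 19 and rose in 2 (median -0.20), with ACAT2, which makes acetoacetyl-CoA, at 7.82, 7.96 and 7.88 in 3D against 8.60, 8.64 and 8.89 in 2D (-0.83 ± 0.11). Fatty acid synthesis and storage rose in 3 of 22 and fell in 3, with the acetyl-CoA synthetase ACSS2 higher by 0.71 and ATP citrate lyase, ACLY, lower by 0.49. That count was 2 without 3D array 1. Fatty acid oxidation genes rose in 3 of 21, among them PPARGC1A, a coactivator of mitochondrial genes, at 5.76, 5.96 and 5.74 in 3D against 4.70, 5.01 and 4.96 in 2D (0.93 ± 0.11). Nuclear genes of oxidative phosphorylation fell in 6 of 46 and rose in 1 (median -0.10), with 1 to 8 called over the alternatives. Lysosome and autophagy genes rose in 6 of 32 and fell in 1, with the protease CTSD higher by 0.66 and the galactosidase GLA lower by 0.72, and 4 passed without 2D array 1 or without 2D array 3. The clock list rose in 3 of 19 and fell in 1, with NPAS2 higher by 0.54 and CLOCK, which can take the same partner, lower by 0.62. In the DNA methylation list 1 of 22 rose and 2 fell, near the shares of all genes (7.55% higher and 7.35% lower). DNMT1 was at 6.30, 6.30 and 6.20 in 3D against 6.86, 6.89 and 6.98 in 2D (-0.64 ± 0.09, adjusted p = 1.35e-05). Its cofactor UHRF1 was at 4.19, 3.98 and 4.26 in 3D against 4.54, 4.72 and 4.59 in 2D. Those arrays did not overlap, and the difference did not pass (-0.47, adjusted p = 0.0636). Under the alternatives the limma adjusted p of UHRF1 ran from 0.02 to 0.206, so its call depended on the setting. Germline genes passed in 1 higher and 1 lower of 28, and olfactory receptors in 1 higher and 3 lower of 334, a smaller share than the 14.9% of all genes called in either direction. Over the alternatives 0 to 2 germline genes passed, and 1 to 8 olfactory receptors, or 0 where only genes above the median level were kept. Small nucleolar and Cajal body RNAs rose in 18 of 143 and fell in 7 (median 0.13), and 16, 14 and 16 passed without 3D array 1, 2D array 1 and 2D array 2. C2H2 zinc finger genes rose in 37 of 463 and fell in 11 (median 0.03), with the higher share near the 7.55% of all genes. ZNF292, the highest of them, was at 6.89, 7.09 and 7.23 in 3D against 5.98, 5.81 and 5.68 in 2D (1.25 ± 0.12).

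The control line was used to ask which of these changes came with 3D culture and the longer doxycycline treatment in cells without the DPPA3 transgene. It had 859 higher genes (4.92%) and 502 lower genes (2.88%), together 7.80%, a split of 63.1% higher that turned to 44.9% when arrays were centred. The 2 comparisons share no arrays. Over genes, their changes correlated at r = 0.644, as a description of genes that are not independent. Of the genes higher in the induced line, 42.5% were also higher in the control line, and 65.2% of those higher in the control line were higher in the induced line. For lower genes these shares were 22.9% and 58.6%. In the opposite direction, 2 genes rose in the induced line and fell in the control line, and 6 fell in the induced line and rose in the control line. The median ratio of the control line's change to the induced line's was 0.551 over the genes called in the induced line, a choice that favours large values in that line. Over the genes called in the control line, the median ratio of the induced line's change to the control line's was 0.900.

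**Figure D4:**
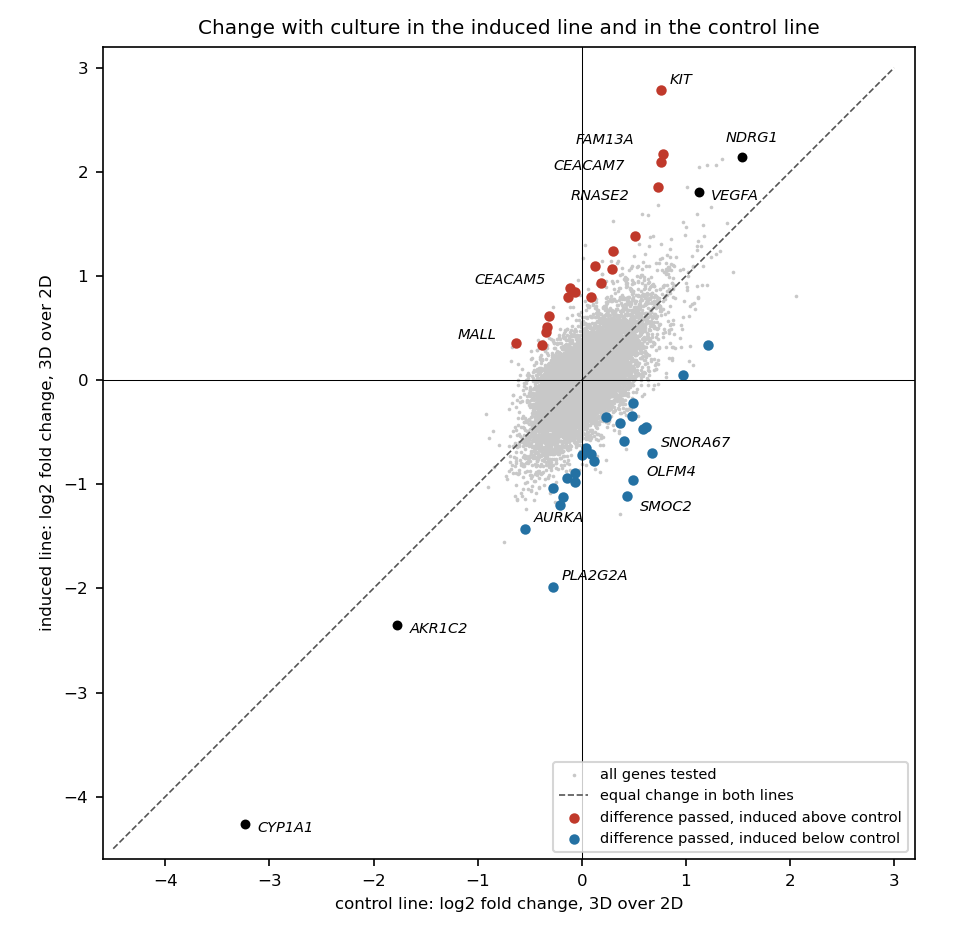
Log2 change from 2D to 3D of 17448 genes, in the induced line (vertical) against the control line (horizontal), with 1 point per gene and a dashed line of equal change. Genes whose difference between the lines passed are in red (18, induced line above control line) or blue (24, induced line below), and CYP1A1, AKR1C2, NDRG1 and VEGFA, in black, moved the same way in both lines.

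Hypoxia genes rose in 14 of 33 in the control line (median 0.26, against 0.53 in the induced line), and VEGFA was at 6.82, 6.97 and 6.70 in its 3D arrays against 5.38, 5.95 and 5.79 in its 2D arrays. CYP1A1 fell by 3.23 in the control line, to 6.01, 6.07 and 5.48 in 3D, against 9.16, 8.97 and 9.13 in 2D. The mean level of the AhR pathway ended close together in 3D, at 5.71 to 5.81 in the induced line and 5.74 to 5.85 in the control line, against 6.53 to 6.58 and 6.31 to 6.34 in 2D. AKR1C2 fell by 1.77 in the control line, and AKR1C1 did not pass (0.37, adjusted p = 0.449). Metallothioneins and zinc transporters rose in 8 of 16 (median 0.33), and MT1F changed by 1.18 in the induced line and 1.25 in the control line. Ribosome biogenesis fell in 14 of 39 (median -0.29) and the proteasome in 10 of 36 (median -0.26). S phase genes fell in 15 of 44 in the control line (median -0.29, against -0.65). Genes of G2 and mitosis fell in 13 of 52 and rose in 5 (median -0.24, against -0.63). The median of the gene-wise differences, induced minus control line, was -0.36 for S phase and -0.46 for G2 and mitosis. Single genes passed the test of the difference 1 time in S phase and 2 times in G2 and mitosis.

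The difference between the lines was tested for every gene. It passed for 18 genes above (0.103%) and 24 below (0.138%), together 0.241%, induced minus control line. Of these 42, 25 were called in the induced line only, 6 in both lines in the same direction, 8 in both in opposite directions and 3 in the control line only. The 3 were ADH1C, SLC9A4 and ITPR2, named after their values were seen. KIT had the largest positive difference, 2.02 (adjusted p = 0.000196), followed by FAM13A (1.39, adjusted p = 0.00216) and CEACAM7 (1.33, adjusted p = 0.0259). CEACAM5, a surface glycoprotein and clinical tumour marker, was at 9.10, 9.17 and 9.18 in 3D against 8.21, 8.30 and 8.29 in 2D in the induced line, and at 8.75, 8.96 and 8.93 in 3D against 9.01, 8.98 and 8.97 in 2D in the control line (difference 0.99, adjusted p = 0.000196). Its 2D arrays in the induced line were thus the lowest of the 12. MALL, a membrane raft protein, changed by 0.35 in the induced line and by -0.63 in the control line (difference 0.98, adjusted p = 0.00556). PLA2G2A had the largest negative difference, -1.71 (adjusted p = 3.31e-06). SMOC2 differed by -1.55 (adjusted p = 0.00146), and was at 6.62, 6.49 and 5.74 in 3D against 5.60, 5.84 and 6.10 in 2D in the control line. OLFM4 differed by -1.46 (adjusted p = 0.000642). In the control line OLFM4 was at 5.77, 5.98 and 6.18 in 3D against 5.37, 5.72 and 5.36 in 2D, far below the induced line in both cultures. For LGR5 the induced line changed by -0.91 and the control line by -0.49, and the difference did not pass. In 2D, KIT was at 3.86, 4.02 and 3.83 in the induced line against 2.97, 3.05 and 2.52 in the control line. The 2D arrays of the lines did not overlap for KIT, CEACAM5, MALL, PLA2G2A, SMOC2 and OLFM4, and overlapped for FAM13A and CEACAM7. The part of these 2D levels in the differences was not tested.

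**Figure D5:**
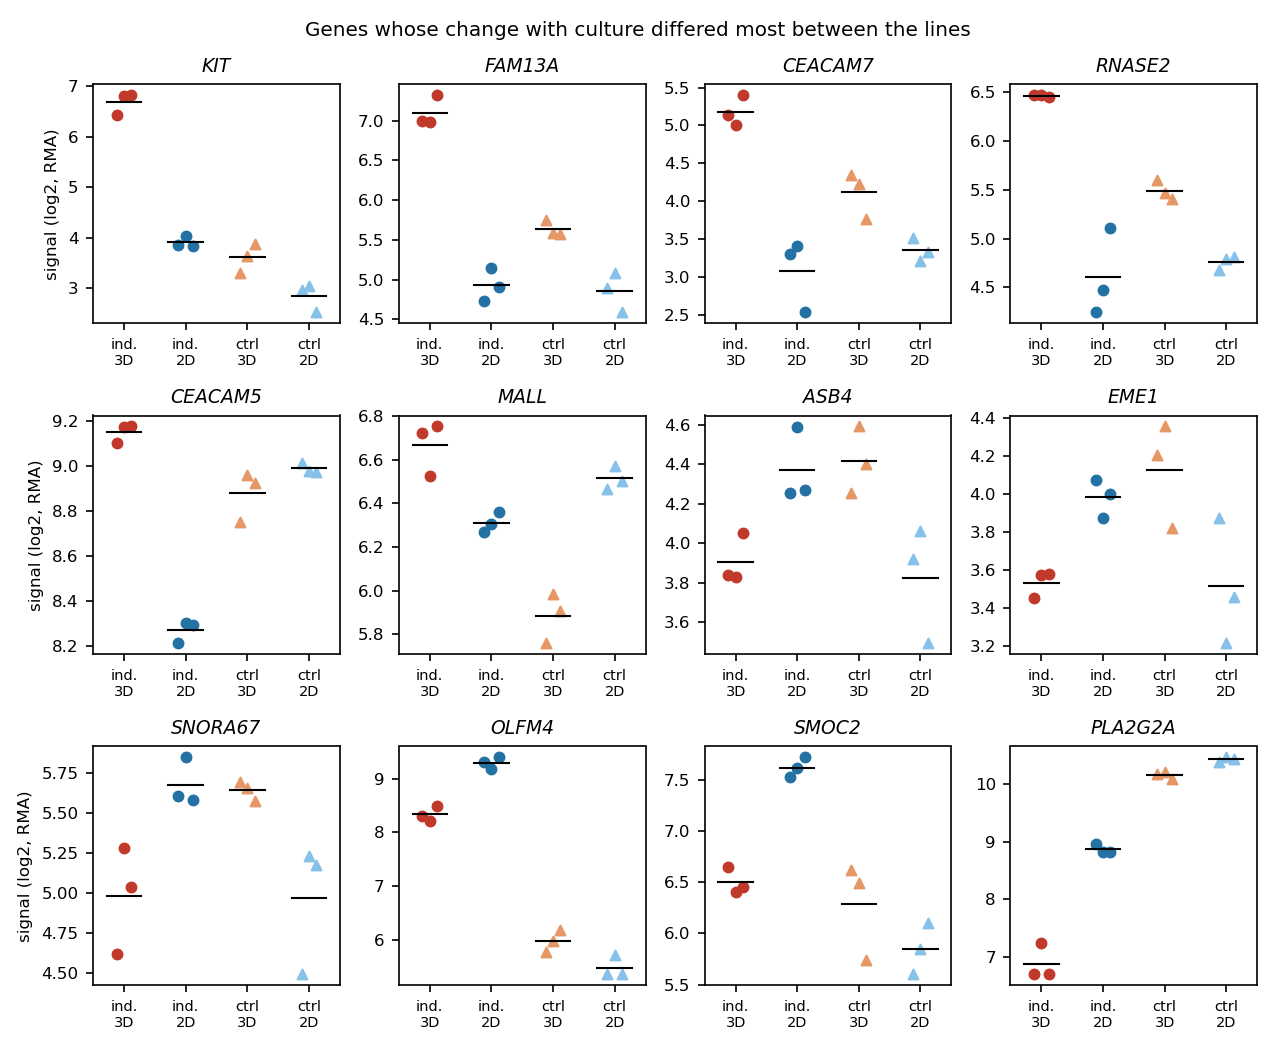
Log2 RMA signal in each array of the genes with the largest differences between the lines, induced line (ind.; 3D left of 2D) before control line (ctrl), with bars at group means and axes that do not start at 0. KIT reaches 6.43 to 6.82 in the 3D arrays of the induced line alone, and OLFM4 stands at 8.21 to 9.40 in the induced line against 5.36 to 6.18 in the control line.

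The count of differences depended on the arrays. It was 7 with the 12 arrays of the induction experiment alone. Leaving out 1 of these 12 gave 11 to 70 genes, with 70 without 3D array 2 of the induced line and 11 without its 3D array 1 or without 3D array 2 of the control line. The differences of KIT, FAM13A, CEACAM5, MALL, PLA2G2A, SMOC2 and OLFM4 passed under all 19 alternatives run for them.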

How the data were processed

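Total RNA of SW1222 cells was labelled with biotin by an Affymetrix protocol and read on 24 arrays in 9 groups, per the labels. The deposited values are log2 signals that the authors made with RMA in a workflow naming Partek 6.6, per the submitters' processing notes. That method subtracts background, gives all arrays one distribution of values and combines the probes of a set, so changes shared by most genes are removed. The genome build was not given in the sources used here. Signals ran from 1.56 to 12.5, and array medians over genes from 4.03 to 4.13. Of 20276 probe sets, 18062 had 1 gene symbol in the platform annotation given, 1288 had several and 926 had none. Of those with 1 symbol, 18036 matched RefSeq by gene ID. Each of 17448 genes was represented by its probe set of highest mean, a choice among several for 468 genes.

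A linear model with 1 coefficient per group was fitted to all 24 arrays with limma 3.58.1 in R 4.3.3 (15 residual and 9.81 prior degrees of freedom). The tests were 2-sided, and the threshold was an adjusted p of 0.05 (Benjamini-Hochberg, over the 17448 genes). The contrasts were 3D minus 2D in the induced line, the same in the control line, and their difference. Precision is limited by 3 arrays per group. The method was checked on simulated data, with changes placed in genes above the median level. It recovered 96% of changes of 1 log2 unit and 57% of changes of 0.5, with 3 false among 156 calls. The simulated data held far fewer changed genes than the 2599 called in the induced line, so these shares need not hold for the real arrays. Changes of the smaller size can be missed in such a setting.

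The members and the 49 gene lists and families (41 written lists with 1141 members and 8 families matched by symbol) were chosen with earlier results of these data known, so counts over them are descriptions without a test. Genes were named by a rule. It took the 15 highest and 15 lowest changes among genes that passed, did not overlap between groups and had a higher group mean above 4.09, the median of all genes. It also took 6 per direction for the difference, up to 4 called members per direction of each list, and 14 genes whatever their values. Promoters came from the RefSeq table given (27305 symbols), and those shown were chosen among genes not on chromosome 8. The promoters of DDIT4 and P4HA1 were chosen after the search, because the genes picked by size held no match.

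The alternatives were a fit on 12 or on 6 arrays, a second quantile normalization, centring of each array, the mean of a gene's probe sets, genes above the median level only, a variance trend with robust fitting, a replicate block, leaving out each array in turn (from the 12), and a rule of at least 2-fold without overlap. That last rule was applied only to the total count of the induced line. Ranges of list counts leave out the fit on genes above the median level, except where it is named.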

Additional observations from a re-analysis of the deposited data

Results flagged for a closer look

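For 19 of the named genes the change from 2D to 3D differed between the lines by limma's test of the difference at an adjusted p under 0.05. The values are log2 differences, induced minus control line. Above 0 were KIT (2.023), FAM13A (1.388), CEACAM7 (1.332), RNASE2 (1.12), CEACAM5 (0.992), MALL (0.985), KRT20 (0.934), APOBEC1, a cytidine deaminase of the small intestine (0.811), and PPARGC1A (0.748). Below 0 were PLA2G2A (-1.71), SMOC2 (-1.552), OLFM4 (-1.458), the small nucleolar RNA SNORA67 (-1.377), EME1, a subunit of a DNA repair nuclease (-1.062), ASB4, a ubiquitin ligase adaptor (-1.057), GAL (-0.985), CCDC167 (-0.942), AURKA (-0.885) and ANLN (-0.762).

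Those of KIT, FAM13A, CEACAM5, MALL, PLA2G2A, SMOC2 and OLFM4 passed in all 19 alternatives. AURKA lost its call in 14 of 19 (adjusted p from 0.0269 to 0.129), APOBEC1 in 12, PPARGC1A in 11 and RNASE2 in 10. GAL and SNORA67 lost theirs in 8, ANLN in 7 of 19 and CEACAM7 in 7 of 18, CCDC167 and KRT20 in 6, ASB4 in 4 and EME1 in 3. For OLFM4, ASB4, EME1 and SNORA67 the induced line fell and the control line rose, with calls in both, and for MALL the induced line rose and the control line fell.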

How the results depend on the processing

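The induced line's count of 2599 genes moved by over 1.5 times in no alternative except the rule of at least 2-fold without overlap, which gave 128; leaving out 1 array gave 1964 to 2362. The control line gave 824 genes with the 12 arrays alone, and 875 to 1221 on leaving out 1 array, against 1361. The 42 differences became 7 with 12 arrays and 11 to 70 on leaving out 1 array. These fits hold fewer arrays. Deviations of same-numbered arrays correlated at -0.209 to 0.15. Whether replicate numbers pair the arrays stays undecided, since differently numbered arrays were not compared in this way. With the replicate block, 1283 genes were higher and 1211 lower in the induced line, 810 and 425 in the control line, and 15 and 16 in the difference. Over 2985 values of named genes under alternatives, 2677 kept direction and call, 302 lost and 5 gained a call, and 1 turned: MYC, which was not called, at 0.005 after a second quantile normalization (adjusted p = 0.989). Of 210 called named genes, 144 kept their call under every alternative. Of 686 list counts, 91 moved by over 1.5 times. The cause was not tested. Signals near the bottom of the scale, such as CEACAM7 and SLC26A3 in 2D, have compressed changes on arrays.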
